A study of Mus musculus with 3 samples.

Results

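The genes described here are those of the voltage-gated ion channels and of the channel families named with them, followed through mouse embryoid bodies (EBs). They were taken by name and level: protein-coding genes whose symbol begins with Kcn, Scn or Cacn and fits the naming pattern of potassium, sodium and calcium channel subunits, and whose count reached 10 in 1 or more libraries. By name 133 genes were found, and 85 of them met the limit, out of 17655 genes in use and 55487 in the table. Of the 48 genes under the limit, 25 had 0 counts in every library. The genes nearest to the limit were Kcnh5 with 10 counts, Kcnk4 with 10.08 and Kcnc2 with 12 on the inside, and Kcnj11, Kcnk16 and Scn2b with 9 each on the outside, counting the highest library.

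EBs are cell clumps in which cultured embryonic stem cells begin to form the first lineages. They were grown from wild-type E14K mouse ES cells in hanging drops and then in suspension, in medium without LIF, and 1 library was made per condition. The conditions were EBs on day 4 after exposure to 30 μM C2 ceramide (a ceramide with a short acyl chain, able to pass into cells) from the start of day 3, EBs on day 4 with the solvent DMSO, and EBs on day 3 with DMSO. The labels call the DMSO EBs controls, and the solvent is given in the methods of the study. The whole EB was extracted, so a gene's level is an average over all of its cells, and fewer cells of a type cannot be told apart from less RNA per cell.

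Voltage-gated channels open when the membrane potential changes. Sodium and calcium channels let positive charge into the cell and so depolarise it, potassium channels let potassium out and repolarise it, and accessory subunits set how many channels reach the membrane and how fast they open and close. They are best known from neurons and muscle, and ES cells and early embryos have transcripts of many of them at low levels.

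The contents of the set are wider than the name of voltage-gated channels. The pore-forming subunits that carry a voltage sensor in the families Kv, Nav and Cav made up 42 of the 85 genes. The other 43 encode accessory subunits or potassium channels of other kinds, such as inward rectifiers, two-pore-domain leak channels and channels opened by calcium or sodium. Of the 85 genes, 72 carried a molecular function term with the words voltage-gated in the annotation of the gene table.

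Total counts were 35290094 in C2 ceramide day 4 EBs, 35078820 in DMSO day 4 EBs and 33619197 in DMSO day 3 EBs. Levels are given in TPM, which divides reads by transcript length and scales every library to the same total, beside the authors' estimated counts. With no replicate, each difference is given by its size and has no test. Differences are log2 ratios of TPM with the 95% interval that counting error alone allows, and genes above 2-fold or below 0.5-fold are called higher or lower. PCR copies of a molecule are counted separately, and the intervals cover counting error only.

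Promoter sequence is shown for Kcnc1, which was lower in C2 ceramide day 4 EBs than in DMSO day 4 EBs, and for Kcnip2 and Kcnk12, which were higher. Of 9 genes with at least 50 counts in either day 4 library whose ratios by TPM and by counts and whose counting interval all lay past 2-fold, they are the 3 whose RefSeq window lay outside annotated exons and within 100 bases of the start of the main coding transcript. Each is the 250 bases before the RefSeq start on GRCm38.p6, 5′ to 3′ on the strand of the gene, with GC boxes (GGGCGG or its reverse complement CCGCCC) in capitals. The windows are chr7:46396218-46396467 on the plus strand, chr19:45816064-45816313 on the minus strand and chr17:87797995-87798244 on the minus strand. The main coding transcript is the one with most counts over all libraries. For Kcnip2 with C2 ceramide, another coding transcript had more counts, 127 against 110. It starts downstream at 45803574, away from this window.
Kcnc1: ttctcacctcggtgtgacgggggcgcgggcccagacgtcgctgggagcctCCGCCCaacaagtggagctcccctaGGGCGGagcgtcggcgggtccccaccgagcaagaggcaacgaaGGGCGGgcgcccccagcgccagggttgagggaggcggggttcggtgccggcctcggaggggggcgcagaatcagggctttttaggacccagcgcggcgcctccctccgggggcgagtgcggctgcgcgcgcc
Kcnip2: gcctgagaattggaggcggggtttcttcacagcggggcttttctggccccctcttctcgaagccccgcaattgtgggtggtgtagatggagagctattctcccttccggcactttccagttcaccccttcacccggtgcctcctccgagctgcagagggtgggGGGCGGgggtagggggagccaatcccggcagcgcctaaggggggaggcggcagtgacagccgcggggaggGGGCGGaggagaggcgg
Kcnk12: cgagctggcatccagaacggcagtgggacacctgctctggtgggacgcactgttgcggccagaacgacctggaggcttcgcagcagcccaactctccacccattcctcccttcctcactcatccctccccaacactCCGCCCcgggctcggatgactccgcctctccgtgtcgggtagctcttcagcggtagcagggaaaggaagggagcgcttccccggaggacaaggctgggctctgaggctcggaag

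All of these windows hold at least 1 GC box. Of the 59 channel genes with a RefSeq window, 35 (59.3%) had a GC box, against 32.7% of the 32851 windows and 35.4% of the 27025 genes that have one, and the median GC content was 62% for the channel genes and 52.4% for all windows. The TATA box letters TATAAA were in 1 channel gene, Scn2a, against 14.3% of all genes with a window. The T-box half-site TCACACCT and the TCF/LEF letters CTTTGAT were in 0 channel genes each, against 1.3% and 3.72% of these genes. The amino acid response element TGATGNAA was in 2 genes, Scn9a and Cacna1c, the octamer ATTTGCAT in 1 gene, Kcnab2, and the RE1 half-site TTCAGCACC in 1 gene, Kcnh6, against 3.91%, 1.81% and 0.348%. Both strands were searched. Some genes have more than 1 window. For all genes a match in any window counted, and for the channel genes the window nearest to the main coding transcript was read. The genes with a window were not limited to protein-coding genes or by counts, as the channel genes were, so these shares and GC contents compare unlike sets. A match is a match of letters only.

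Most channel genes were at low levels. Their median was 0.505 TPM in C2 ceramide day 4 EBs, 0.35 TPM in DMSO day 4 EBs and 0.536 TPM in DMSO day 3 EBs, while the median over all genes in use was 6.74, 7.05 and 6.52 TPM in the same order. A level of at least 1 TPM was reached by 27 of the 85 genes with C2 ceramide, 23 with DMSO on day 4 and 24 with DMSO on day 3, and in the same order 10, 6 and 8 genes had 0 counts. The summed level of the set was 192 TPM with C2 ceramide, 168 with DMSO on day 4 and 217 with DMSO on day 3, of which, in the same order, 65.7, 51.5 and 89.4 TPM came from Kcnk1 alone, a two-pore-domain leak channel.

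**Figure D1:**
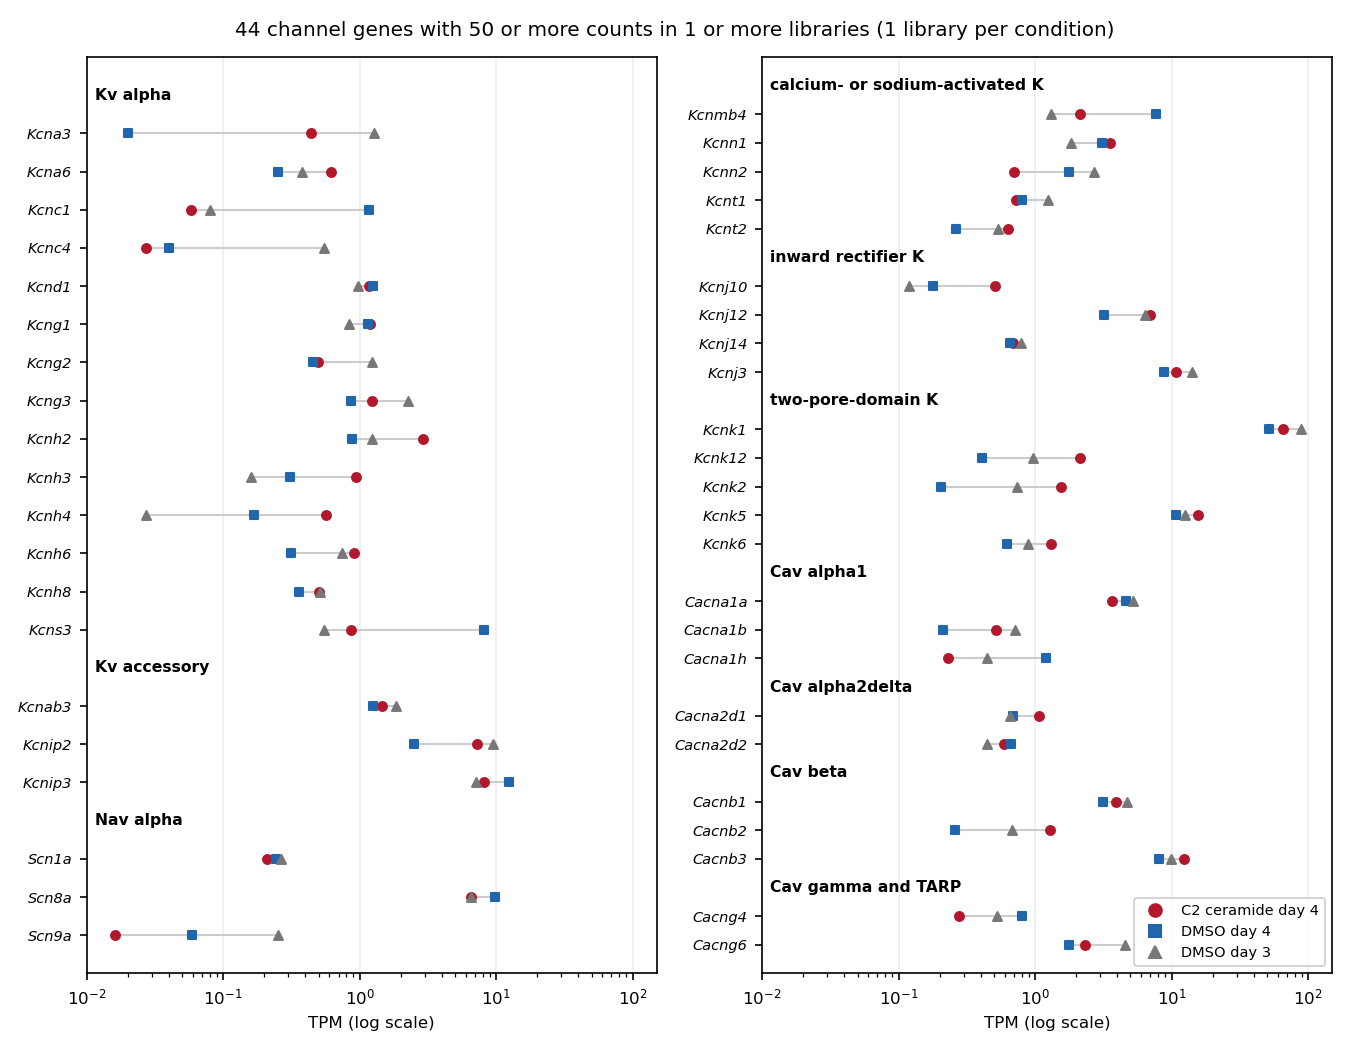
TPM on a log axis of 44 of the 50 channel genes that reached 50 counts in 1 or more libraries, by family. Circles are C2 ceramide day 4 EBs, squares DMSO day 4 EBs and triangles DMSO day 3 EBs, 1 library each, and a grey line joins the lowest and the highest value. Kcnk1 stands alone above 50 TPM, and Kcna3, with 0.020 TPM in DMSO day 4 EBs and 1.28 TPM in DMSO day 3 EBs, has the widest gap.

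To ask how C2 ceramide day 4 EBs differed from DMSO day 4 EBs, the TPM of each gene was compared between these libraries. Of the 85 channel genes, 23 (27.1%) were higher with C2 ceramide, against 9.97% of all genes in use, and 18 (21.2%) were lower, against 12.3%. The median log2 ratio of the channel genes was 0.28, and that of all genes in use was −0.03. With empty libraries set at 3 counts, the median of the channel genes was again 0.28. Genes with few counts pass 2-fold more often, so the shares were also read within ranges of counts. Genes that reached the limit of 10 counts in a single library entered through their high value there, among channel genes and all genes alike. Of the 35 channel genes with 50 to under 200 counts in their highest library, 12 (34.3%) were higher and 4 (11.4%) were lower, against 15.3% and 18.6% of all genes in that range. Of the 35 channel genes under 50 counts, 8 (22.9%) were higher and 11 (31.4%) were lower, against 23.5% and 29.3%, so in this range both shares lay near those of all genes.

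Between DMSO day 4 and DMSO day 3 EBs, 16 channel genes (18.8%) were higher on day 4, against 12.8% of all genes, and 23 (27.1%) were lower, against 9.45%. The median log2 ratio was −0.48 for the channel genes and 0.05 for all genes in use. Within 50 to under 200 counts, 3 of 35 (8.57%) stood higher on day 4 and 14 (40.0%) lower, against 21.7% and 14.3% of all genes. Between C2 ceramide day 4 and DMSO day 3 EBs, 13 (15.3%) were higher and 17 (20.0%) were lower, against 11.2% and 9.39%, and the median log2 ratio was −0.02 for the channel genes, or 0 with empty libraries at 3 counts, and 0.03 for all genes in use. Within 50 to under 200 counts, 6 of 35 (17.1%) were higher and 6 were lower, against 18% and 15.1%, and under 50 counts 6 were higher and 11 (31.4%) lower, against 26.1% and 26% of all genes. Under 50 counts the shares for DMSO day 4 over day 3 were 10 genes (28.6%) higher and 8 (22.9%) lower, against 28.1% and 25.1%. The comparisons of DMSO day 4 with C2 ceramide and with day 3 share the DMSO day 4 library, so a high or low value in it moves both.

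The 50 channel genes that reached 50 counts in 1 or more libraries were also read on their own. With C2 ceramide 15 were higher and 7 lower than with DMSO on day 4, against 6.05% and 7.39% of all genes with 50 or more counts. Those genes lie deeper: 2666 of the 13699 had 50 to under 200 counts, against 35 of the 50 channel genes. The shares of all genes in this paragraph are thus not matched for counts. On DMSO day 4, 6 were higher and 15 lower than on day 3, against 8.44% and 4.93%. Between C2 ceramide day 4 and DMSO day 3, 7 were higher and 6 lower, against 6.85% and 4.58%.

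**Figure D2:**
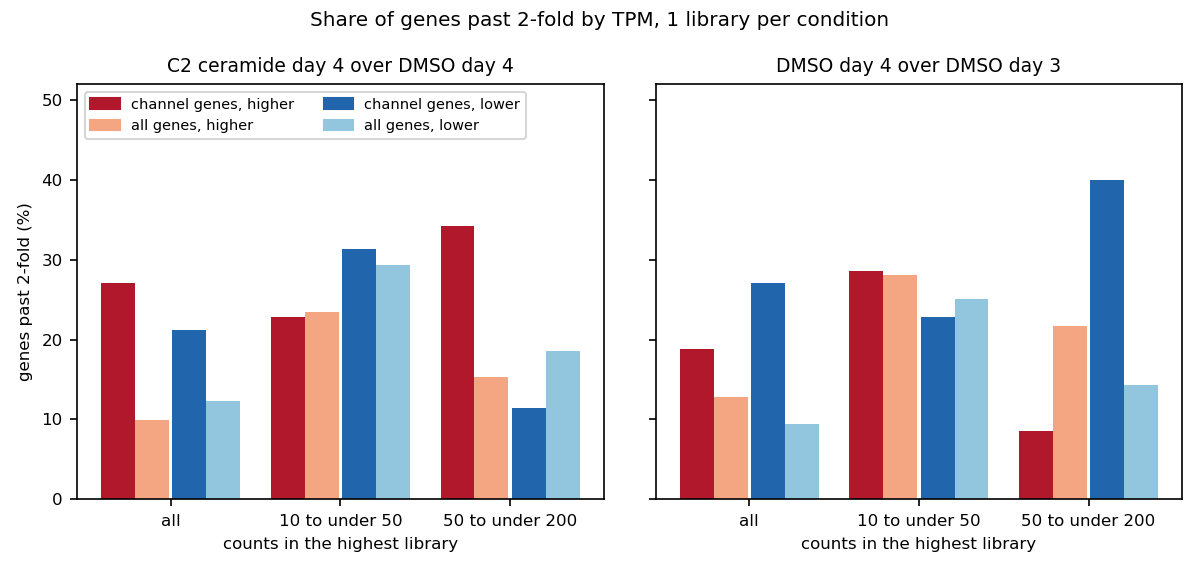
Share of genes past 2-fold by TPM, in percent, for C2 ceramide day 4 over DMSO day 4 EBs (left) and DMSO day 4 over DMSO day 3 EBs (right), over all genes and by counts in the highest library. Dark bars are channel genes and light bars all genes in the same range, red for higher and blue for lower. Within 50 to under 200 counts, 34.3% of the channel genes were higher with C2 ceramide against 15.3% of all genes, and 40.0% were lower on DMSO day 4 than on day 3 against 14.3%.

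Calls by TPM and by counts differed for some genes, because TPM also depends on which transcripts of a gene the reads were assigned to. When a 2-fold difference was asked of TPM and of counts per library total alike, 20 channel genes were higher and 15 lower with C2 ceramide than in DMSO EBs on day 4, against 8.99% and 11.3% of all genes. In the same way 12 were higher and 17 lower on DMSO day 4 than on day 3, against 11.6% and 8.5% of all genes, and 12 were higher and 16 lower with C2 ceramide on day 4 than with DMSO on day 3, against 9.98% and 8.56%.

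The pore-forming Kv subunits, which open on depolarisation and shape the return to rest, were the largest family. Of 29 genes, 9 were higher and 6 lower with C2 ceramide than in DMSO EBs on day 4, against 9.97% and 12.3% of all genes in use, and their median log2 ratio was 0.17, where all genes had −0.03. The median of their highest counts was 62. Of all genes, 15.3% were higher and 18.6% lower at 50 to under 200 counts, and 23.5% and 29.3% under 50 counts. The share of all genes in use, here and with each family and list below, is thus not matched for counts. Among channel genes with at least 50 counts in either library, the largest differences on day 4 were those of the lower genes Kcnc1 and Kcns3. Kcns3 (chromosome 12, 11090202 to 11151056, minus strand) encodes a subunit that forms no channel alone and modifies other Kv channels. Its level was 0.862 TPM in C2 ceramide day 4 EBs, 8.21 TPM in DMSO day 4 EBs and 0.550 TPM in DMSO day 3 EBs, from 60, 552 and 34 counts. The DMSO day 4 library stood far above both others. The log2 ratio was −3.25 (−3.66 to −2.86) on day 4 with C2 ceramide over DMSO and 3.90 (3.40 to 4.44) for DMSO day 4 over day 3.

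Kcnc1 (chromosome 7, 46396497 to 46438704, plus strand), whose promoter is shown above, encodes a channel of fast-spiking neurons. It had 0.058 TPM in C2 ceramide day 4 EBs, 1.17 TPM in DMSO day 4 EBs and 0.080 TPM in DMSO day 3 EBs, from 14, 203 and 9 counts. The log2 ratio was −4.34 (−5.23 to −3.56) on day 4 with C2 ceramide over DMSO, and 3.87 (2.92 to 5.02) for DMSO day 4 over day 3. As for Kcns3, DMSO day 4 was the high library. Kcnc4, of the same family, did not share this pattern, with 0.027 TPM with C2 ceramide, 0.040 with DMSO on day 4 and 0.551 with DMSO on day 3. Kcnc4 had 2 counts with C2 ceramide, 3 with DMSO on day 4 and 58 with DMSO on day 3 and was thus lower in both day 4 libraries than on day 3.

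Kcna1, Kcnd3 and Kcnq3 had counts in DMSO day 4 EBs alone or nearly so, at low depth. Kcna1, a channel of axons, had 0 counts in C2 ceramide day 4 EBs, 35 in DMSO day 4 EBs and 0 in DMSO day 3 EBs. With the empty library set at 3 counts, it was 11.7-fold lower with C2 ceramide on day 4. Kcnd3, which carries the transient outward current of the heart with Kcnip2, had 0 counts with C2 ceramide, 16 with DMSO on day 4 and 0 with DMSO on day 3. In the same way it was 5.37-fold lower. Kcnq3, with 0 counts with C2 ceramide, 20 with DMSO on day 4 and 5 with DMSO on day 3, was 6.71-fold lower. These folds take the other count as exact. Counting error allows smaller ones, as the log2 interval ends at −3.18 for Kcna1, −1.96 for Kcnd3 and −2.31 for Kcnq3. Each of these genes passed the limit of counts only through the DMSO day 4 library, so the limit favours a lower call.

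The Kcnh genes, which encode the ether-à-go-go channels, were singled out after their values were seen. Of 8 such genes in the set, 5 were higher with C2 ceramide than in DMSO EBs on day 4 and 0 were lower, against 9.97% and 12.3% of all genes in use. As the group was picked on these values, its counts are a description only. Kcnh5 reached the limit of counts only with C2 ceramide and Kcnh1 only in DMSO day 3 EBs. The limit thus set the higher call of Kcnh5 and left Kcnh1 without a call on day 4. Kcnh2 (chromosome 5, 24319589 to 24351604, minus strand), which carries the rapid delayed rectifier current of the heart, had 2.93 TPM in C2 ceramide day 4 EBs, 0.880 TPM in DMSO day 4 EBs and 1.22 TPM in DMSO day 3 EBs, from 239, 78 and 139 counts. The log2 ratio on day 4 was 1.74 (1.36 to 2.12), and C2 ceramide was the highest of the 3 libraries. Coding transcripts held 65.6% of its TPM with C2 ceramide, 67.2% with DMSO on day 4 and 100% with DMSO on day 3.

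The brain-enriched relatives Kcnh3 and Kcnh4 were also highest with C2 ceramide. Kcnh3 had 0.942, 0.306 and 0.160 TPM in C2 ceramide day 4, DMSO day 4 and DMSO day 3 EBs, from 75, 22 and 17 counts, with a log2 ratio on day 4 of 1.62 (0.92 to 2.38). Kcnh4 had 0.566 TPM with C2 ceramide, 0.169 with DMSO on day 4 and 0.027 with DMSO on day 3 from 65, 19 and 3 counts, with a log2 ratio of 1.74 (0.99 to 2.56). Kcnh6, a close relative of Kcnh2, differed from these in its day 3 level: it had 0.913 TPM with C2 ceramide, 0.314 with DMSO on day 4 and 0.745 with DMSO on day 3 from 93, 31 and 72 counts, with a log2 ratio of 1.54 (0.94 to 2.18) on day 4, so DMSO day 4 was its low library. Kcnh5 had 10 counts with C2 ceramide, 0 with DMSO on day 4 and 0 with DMSO on day 3. With the empty library at 3 counts, it was 3.31-fold higher with C2 ceramide on day 4. The remaining genes were Kcnh8 at a log2 ratio of 0.48, Kcnh7 at −0.20, and Kcnh1, which had counts in DMSO day 3 EBs only, 43 of them.

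Shaker-type Kcna genes varied without a common direction. Kcna3, known from T cells and microglia, had 0.439 TPM in C2 ceramide day 4 EBs, 0.020 TPM in DMSO day 4 EBs and 1.28 TPM in DMSO day 3 EBs, from 22, 1 and 62 counts. The single count makes its ratio on day 4 wide, at 4.46 (1.83 to 9.82) on the log2 scale. Kcna4 had 25 counts with C2 ceramide, 0 with DMSO on day 4 and 0 with DMSO on day 3. With the empty library at 3 counts, it was 8.28-fold higher with C2 ceramide than in DMSO EBs on day 4. It passed the limit of counts only through the C2 ceramide library. Kcna5, in the same cluster as Kcna1 and Kcna6 on chromosome 6, was nearly level at 0.402 TPM with C2 ceramide, 0.516 with DMSO on day 4 and 0.391 with DMSO on day 3.

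Kcna6 had 0.614, 0.254 and 0.381 TPM in C2 ceramide day 4, DMSO day 4 and DMSO day 3 EBs and a log2 ratio of 1.27 on day 4, but by counts, 70, 45 and 66 in the same order, the log2 ratio was 0.63. In C2 ceramide day 4 EBs 85.5% of its TPM lay on a protein-coding transcript, against 0% in each DMSO library. The antisense gene Gm26673 covers 39.6% of its exon bases and had 0 counts in each library, and the library kit does not mark strand. The silent subunits Kcng3 and Kcng2 were highest on day 3, Kcng3 with 1.22 TPM with C2 ceramide, 0.866 with DMSO on day 4 and 2.25 with DMSO on day 3 and Kcng2 in the same order with 0.495, 0.457 and 1.24 TPM. Kcng2 had 37 counts with C2 ceramide, 34 with DMSO on day 4 and 50 with DMSO on day 3, so its counts differ less than its TPM.

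**Figure D3:**
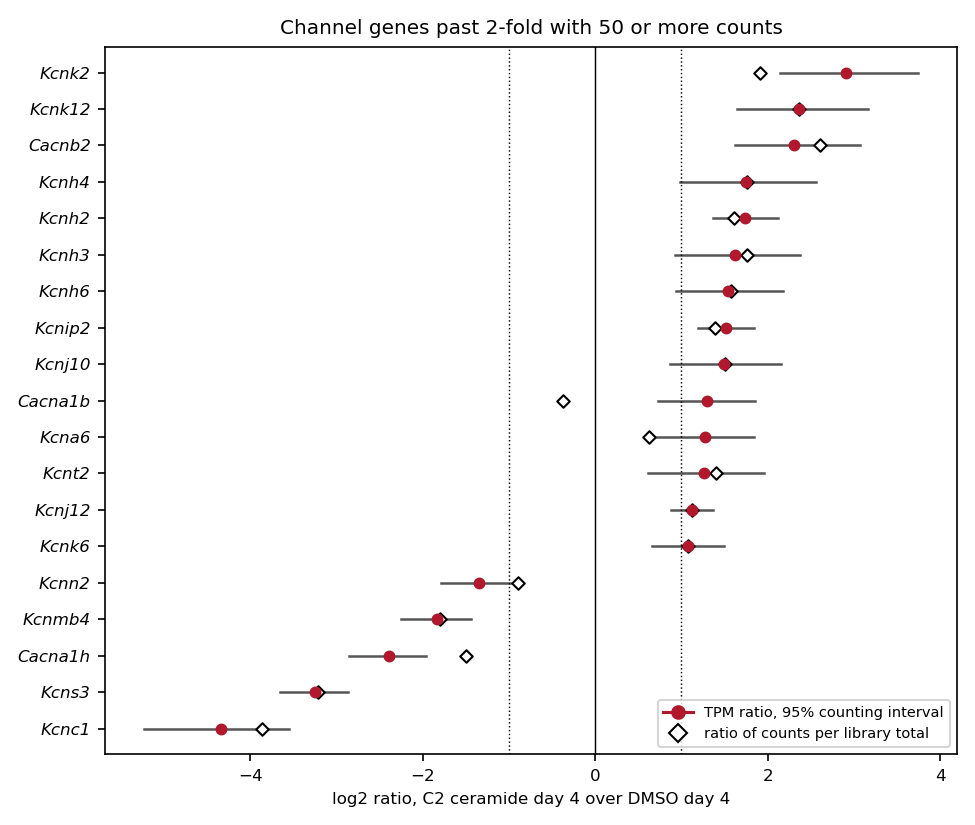
Log2 ratio on day 4, C2 ceramide over DMSO, for the channel genes past 2-fold with at least 50 counts in at least 1 of these libraries. Red points are TPM ratios with their 95% counting intervals, open diamonds are ratios of counts per library total, and dotted lines mark 2-fold. Points and diamonds lie close together for most genes, while Cacna1b falls on opposite sides of 0 and Cacna1h, Kcnk2, Kcna6 and Kcnn2 lie apart.

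Accessory Kv subunits were led by the calcium-binding KChIP proteins. Kcnip2 (chromosome 19, 45791839 to 45816061, minus strand), whose product binds Kv channels of the Kcnd genes and is needed for the transient outward current of the mouse heart, had 7.19 TPM in C2 ceramide day 4 EBs, 2.52 TPM in DMSO day 4 EBs and 9.55 TPM in DMSO day 3 EBs, from 288, 109 and 360 counts. DMSO day 4 was its low library. The log2 ratio was 1.52 (1.19 to 1.85) on day 4 with C2 ceramide over DMSO and −1.92 (−2.25 to −1.61) for DMSO day 4 over day 3. Kcnip3, which also acts as a transcriptional repressor, lay the other way within 2-fold at 8.12 TPM with C2 ceramide, 12.4 with DMSO on day 4 and 7.07 with DMSO on day 3 and log2 ratios of −0.61 and 0.81. Of the 6 accessory genes 2 were higher and 1 lower on day 4 with C2 ceramide, against 9.97% and 12.3% of all genes in use. Beside Kcnip2 those called were Kcnab2 with 22 counts with C2 ceramide, 13 with DMSO on day 4 and 7 with DMSO on day 3 and, in the same order, Kcne1 with 0, 15 and 3 counts. By counts Kcne1 was higher on DMSO day 4 than on day 3, with a log2 ratio of 2.26, while its TPM was lower, 0.159 on DMSO day 4 and 0.318 on DMSO day 3.

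The family of potassium channels opened by calcium or sodium was formed by gene name, and it takes in Kcnu1 and the accessory Kcnmb subunits. Lower genes were most common in this family with C2 ceramide: 5 of 10 were lower and 2 higher than with DMSO on day 4, against 12.3% and 9.97% of all genes in use, at a median log2 ratio of −1.001. Of the lower genes, Kcnma1, Kcnn4 and Kcnu1 were under 50 counts in every library, a range in which 29.3% of all genes were lower. The summed level of the family was 8.22 TPM in C2 ceramide day 4 EBs, 15.0 TPM in DMSO day 4 EBs and 9.71 TPM in DMSO day 3 EBs. Kcnmb4 (chromosome 10, 116417861 to 116473878, minus strand), the neuronal accessory subunit of the large-conductance BK channel, had 2.15 TPM with C2 ceramide, 7.68 with DMSO on day 4 and 1.31 with DMSO on day 3, from 68.2, 236 and 42 counts. DMSO day 4 was the high library, with log2 ratios of −1.84 (−2.25 to −1.45) on day 4 with C2 ceramide over DMSO and 2.55 (2.07 to 3.06) for DMSO day 4 over day 3. The antisense gene Kcnmb4os2 covers 20.8% of its exon bases and had 7.85 counts with C2 ceramide, 15.4 with DMSO on day 4 and 0 with DMSO on day 3. Kcnma1, the pore of the same BK channel, followed another course at 5 counts with C2 ceramide, 21 with DMSO on day 4 and 34.9 with DMSO on day 3.

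The small-conductance channels Kcnn1, Kcnn2 and Kcnn3, which follow calcium entry, did not move as 1 group. Kcnn2 had 0.699 TPM with C2 ceramide, 1.78 with DMSO on day 4 and 2.72 with DMSO on day 3 from 69, 128 and 163 counts. On day 4 its log2 ratio was −1.35 (−1.79 to −0.91) by TPM and −0.90 by counts. Kcnn3 had 5 counts with C2 ceramide, 13 with DMSO on day 4 and 30 with DMSO on day 3, so both of these were lowest with C2 ceramide and highest in DMSO day 3 EBs. Kcnn1 stayed within 2-fold by TPM in every comparison, at 3.52 TPM with C2 ceramide, 3.08 with DMSO on day 4 and 1.83 with DMSO on day 3, from 160, 202 and 89 counts. By counts its log2 ratio was 1.12 for DMSO day 4 over day 3. On day 4 with C2 ceramide over DMSO it was −0.34 by counts and 0.19 by TPM. Kcnn4, the intermediate-conductance channel of blood and epithelial cells, had 11 counts with C2 ceramide, 25 with DMSO on day 4 and 36 with DMSO on day 3. Kcnu1, known from sperm, had 0 counts with C2 ceramide, 17 with DMSO on day 4 and 0 with DMSO on day 3. With the empty library at 3 counts, it was 5.70-fold lower with C2 ceramide on day 4. It passed the limit of counts only through the DMSO day 4 library. In the other direction, Kcnt2, opened by sodium, had 0.629 TPM with C2 ceramide, 0.262 with DMSO on day 4 and 0.533 with DMSO on day 3 from 72, 27 and 51 counts, with a log2 ratio of 1.26 (0.61 to 1.96) on day 4. Kcnmb2 had 9 counts with C2 ceramide, 0 with DMSO on day 4 and 21 with DMSO on day 3.

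Among the inward rectifiers, which hold the resting potential, 2 of 8 genes were higher and 1 lower with C2 ceramide on day 4, against 9.97% and 12.3% of all genes in use, at a median log2 ratio of 0.18. Kcnj12 had 7.001 TPM in C2 ceramide day 4 EBs, 3.22 TPM in DMSO day 4 EBs and 6.35 TPM in DMSO day 3 EBs, from 448, 204 and 393 counts, with a log2 ratio on day 4 of 1.12 (0.88 to 1.37). Its C2 ceramide and DMSO day 3 levels were close, with a log2 ratio of 0.14 (−0.06 to 0.34). Kcnj10, a glial potassium channel, had 0.505 TPM with C2 ceramide, 0.179 with DMSO on day 4 and 0.120 with DMSO on day 3 from 83, 29 and 19 counts, with a log2 ratio of 1.50 (0.87 to 2.16) on day 4.

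The most abundant inward rectifier was Kcnj3, a pore subunit of channels opened by G proteins, at 10.8 TPM with C2 ceramide, 8.78 with DMSO on day 4 and 14.1 with DMSO on day 3, within 2-fold in every comparison. Its partner in atrial muscle, Kcnj5, had 0 counts with C2 ceramide, 30 with DMSO on day 4 and 0 with DMSO on day 3. With the empty library at 3 counts, Kcnj5 was 10.1-fold lower with C2 ceramide than in DMSO EBs on day 4. In the same way it was 9.58-fold higher on DMSO day 4 than on day 3. It passed the limit of counts only through the DMSO day 4 library. Kcnj8 and Kcnj16 had counts in DMSO day 3 EBs only, 21 and 13.

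Two-pore-domain channels carry the background leak of potassium and were the most abundant family, at 86.7 TPM in C2 ceramide day 4 EBs, 63.9 TPM in DMSO day 4 EBs and 105 TPM in DMSO day 3 EBs. Of 7 genes, 3 were higher with C2 ceramide than in DMSO EBs on day 4 and 0 were lower, against 9.97% and 12.3% of all genes in use, at a median log2 ratio of 0.97. That median is the ratio of Kcnk4 (−3.30 to 6.85), from 2 counts with C2 ceramide and 1 with DMSO on day 4. Kcnk3 lay the other way within 2-fold, at a log2 ratio of −0.91. Kcnk1 had 65.7 TPM with C2 ceramide, 51.5 with DMSO on day 4 and 89.4 with DMSO on day 3, and its log2 ratios of 0.35 (0.28 to 0.43) on day 4 with C2 ceramide over DMSO and −0.80 (−0.87 to −0.73) for DMSO day 4 over day 3 had the narrowest intervals of the set. Kcnk5, opened by alkaline pH, had 15.7 TPM with C2 ceramide, 10.8 with DMSO on day 4 and 12.6 with DMSO on day 3, also within 2-fold.

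Kcnk12 (chromosome 17, 87745801 to 87797994, minus strand), whose promoter is shown above, encodes a subunit that gives little current alone. It had 2.12 TPM in C2 ceramide day 4 EBs, 0.411 TPM in DMSO day 4 EBs and 0.970 TPM in DMSO day 3 EBs, from 98, 19 and 44 counts. C2 ceramide was the high library and DMSO day 4 the low one, with log2 ratios of 2.37 (1.65 to 3.16) on day 4, −1.24 (−2.10 to −0.43) for DMSO day 4 over day 3, and 1.13 (0.60 to 1.68) for C2 ceramide day 4 over DMSO day 3. Kcnk6 showed the same order at 1.30 TPM with C2 ceramide, 0.621 with DMSO on day 4 and 0.895 with DMSO on day 3, its log2 ratio being 1.07 (0.66 to 1.49) on day 4.

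Kcnk2, a channel opened by stretch and lipids, had 1.54 TPM with C2 ceramide, 0.205 with DMSO on day 4 and 0.732 with DMSO on day 3 from 68, 18 and 26 counts. Its log2 ratio on day 4 was 2.91 (2.14 to 3.75) by TPM and 1.91 by counts. Little of this was assigned to coding transcripts: 0% of its TPM in each day 4 library and 41.3% in DMSO day 3 EBs. In C2 ceramide day 4 EBs, 65 of the counts were on a transcript annotated as a target of nonsense-mediated decay, and 3 counts on a transcript of 384 bases gave 52.5% of the TPM.

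Sodium channels carry the upstroke of the action potential. Of the 6 pore-forming Nav genes, 0 were higher and 1 lower with C2 ceramide than in DMSO EBs on day 4, against 9.97% and 12.3% of all genes in use, at a median log2 ratio of −0.40. Scn8a, the main sodium channel of the axon initial segment, made up most of the family, at 6.52 TPM in C2 ceramide day 4 EBs, 9.88 TPM in DMSO day 4 EBs and 6.59 TPM in DMSO day 3 EBs, its log2 ratio being −0.60 (−0.82 to −0.38) on day 4, within 2-fold. In the same order, coding transcripts held 59.1%, 61.3% and 63.7% of its TPM. A retained-intron transcript of 514 bases gave 1.88, 2.55 and 1.43 TPM from 13.0, 17.2 and 9.38 counts. The coding transcript of 7030 bases held 0.337, 0.463 and 0.253 TPM.

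Scn9a, of sensory neurons, had 3 counts with C2 ceramide, 11 with DMSO on day 4 and 52 with DMSO on day 3 and was highest on day 3. It lies in a cluster on chromosome 2 with Scn1a, Scn2a and Scn3a. Scn1a had 27 counts with C2 ceramide, 52 with DMSO on day 4 and 50 with DMSO on day 3. Scn2a, by contrast, had 27 counts with C2 ceramide, 12 with DMSO on day 4 and 12 with DMSO on day 3, and Scn3a 11, 9 and 25 in the same order, so the genes of the cluster had no common order. The level of Scn3a was 0.046 TPM with C2 ceramide, 0.038 with DMSO on day 4 and 0.768 with DMSO on day 3, but 0.635 TPM on day 3 came from 2 counts on a transcript of 365 bases. Scn4b, an accessory beta subunit, had 1 count with C2 ceramide, 13 with DMSO on day 4 and 0 with DMSO on day 3.

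Calcium channels couple depolarisation to calcium entry. Of the 7 pore-forming Cav genes, 2 were higher and 2 lower with C2 ceramide on day 4, against 9.97% and 12.3% of all genes in use, at a median log2 ratio of −0.34. The most abundant, Cacna1a of the presynaptic P/Q-type channel, had 3.63 TPM in C2 ceramide day 4 EBs, 4.60 TPM in DMSO day 4 EBs and 5.26 TPM in DMSO day 3 EBs, within 2-fold. A coding transcript of 2941 bases held 1.78, 3.64 and 2.87 TPM of this in the same order. The longer coding transcripts did not follow that order: 0.555, 0.243 and 0.0842 TPM at 7926 bases, and 0.287, 0 and 0.272 TPM at 7503 bases. Cacna1h (chromosome 17, 25374285 to 25433783, minus strand), a T-type channel that opens near rest, had 0.229 TPM with C2 ceramide, 1.21 with DMSO on day 4 and 0.445 with DMSO on day 3 from 59, 166 and 111 counts. DMSO day 4 was its high library, and the log2 ratio on day 4 was −2.40 (−2.85 to −1.96) by TPM and −1.50 by counts. Of the 1.21 TPM, 0.280 and 0.292 TPM came from 1.22 and 2.27 counts on transcripts of 412 and 551 bases. Its transcripts of 8220 and 8230 bases held 0.229 and 0 TPM in C2 ceramide day 4 EBs, against 0.548 and 0.0865 TPM in DMSO day 4 EBs.

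The N-type channel gene Cacna1b was called higher by TPM alone. It had 0.517 TPM with C2 ceramide, 0.211 with DMSO on day 4 and 0.708 with DMSO on day 3 from 49, 63 and 43 counts. The log2 ratio on day 4 was 1.29 by TPM and −0.37 by counts. In C2 ceramide day 4 EBs, 0.362 TPM came from 2.63 counts on a transcript of 523 bases. The L-type channel gene Cacna1c, of heart and smooth muscle, had 0 counts with C2 ceramide, 13 with DMSO on day 4 and 10 with DMSO on day 3. With the empty library at 3 counts, it was 4.36-fold lower with C2 ceramide on day 4. Cacna1d, in the same order, had 10, 1 and 14 counts.

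**Figure D4:**
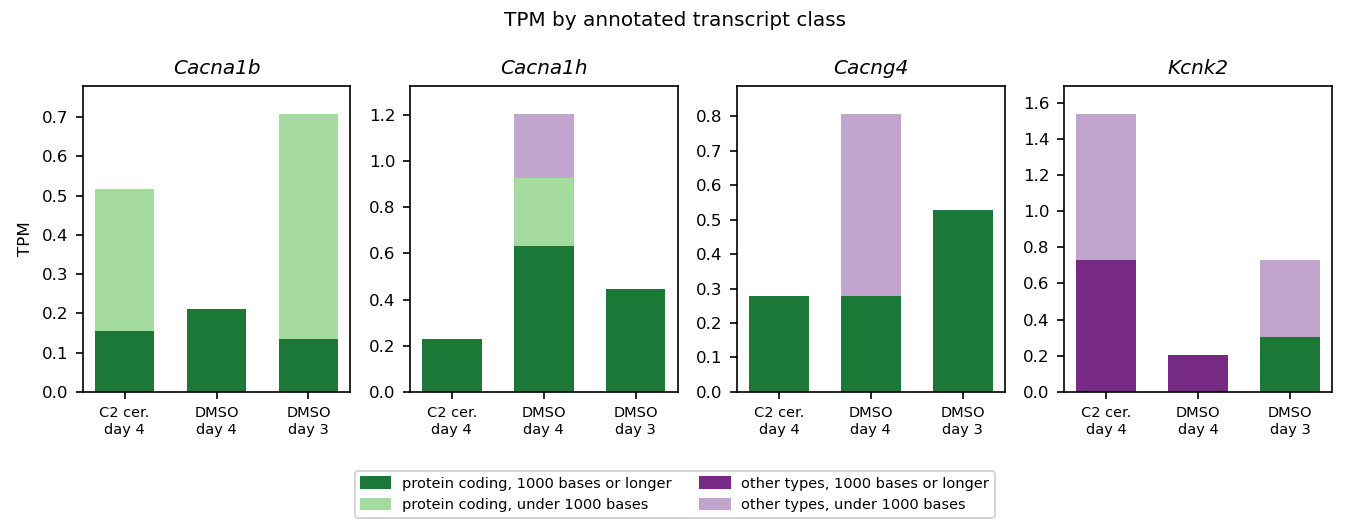
TPM of 4 channel genes by class of annotated transcript, in C2 ceramide day 4, DMSO day 4 and DMSO day 3 EBs. Green is protein coding and purple other types, dark for transcripts of 1000 bases or longer and light for shorter ones. In Cacna1b the short transcript holds 0.362 of 0.517 TPM with C2 ceramide, and the 2.44 counts on a short transcript of Cacng4 give 0.530 of its 0.808 TPM in DMSO day 4 EBs.

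The Cav beta subunits carry the pore to the membrane. Cacnb3 was the most abundant at 12.3 TPM in C2 ceramide day 4 EBs, 8.05 TPM in DMSO day 4 EBs and 9.94 TPM in DMSO day 3 EBs. Cacnb1, of skeletal muscle, had 3.90 TPM with C2 ceramide, 3.14 with DMSO on day 4 and 4.74 with DMSO on day 3, and neither gene passed 2-fold. Cacnb2 (chromosome 2, 14603088 to 14987908, plus strand), the main beta subunit of the heart, did so, with 1.29 TPM with C2 ceramide, 0.261 with DMSO on day 4 and 0.679 with DMSO on day 3 from 123, 20 and 74 counts. Its log2 ratio was 2.31 (1.62 to 3.07) on day 4 with C2 ceramide over DMSO and −1.38 (−2.17 to −0.65) for DMSO day 4 over day 3, so DMSO day 4 was the low library.

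The alpha2delta subunits, which raise the number of calcium channels at the surface and bind gabapentin, gave 0 calls of 2 by TPM. Cacna2d1 had 1.07 TPM with C2 ceramide, 0.687 with DMSO on day 4 and 0.653 with DMSO on day 3. Cacna2d2 had 0.590 TPM with C2 ceramide, 0.669 with DMSO on day 4 and 0.445 with DMSO on day 3 from 39, 111 and 70 counts, so by counts its log2 ratio on day 4 was −1.52 and by TPM −0.18, with 63.9% of its C2 ceramide TPM on a retained-intron transcript of 604 bases.

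In the gamma family, whose members bind calcium channels or AMPA-type glutamate receptors, 2 of 4 genes were higher and 1 lower with C2 ceramide on day 4, against 9.97% and 12.3% of all genes in use. Cacng6, Cacng7 and Cacng8 lie side by side on chromosome 7. Cacng6 had 2.31, 1.78 and 4.57 TPM in C2 ceramide day 4, DMSO day 4 and DMSO day 3 EBs and was highest on day 3. Cacng8 had 19 counts with C2 ceramide, 2 with DMSO on day 4 and 17 with DMSO on day 3 and Cacng7, in the same order, 36, 16 and 22, both lowest in DMSO day 4 EBs. Cacng4 had 29 counts with C2 ceramide, 31 with DMSO on day 4 and 53 with DMSO on day 3, so its lower TPM with C2 ceramide, 0.279 against 0.808 with DMSO on day 4, was not seen in the counts.

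Transcript assignment was examined for all 50 channel genes with at least 50 counts. The transcript with the highest TPM was the same in every library for 24 and differed for 26. Protein-coding transcripts held at least 90% of the TPM in every library for 28 genes and under 50% in at least 1 library for 9. Exons of 30 of the 85 genes overlap another gene, 27 of them one on the opposite strand, from which an unstranded library cannot tell them apart.

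Genes that work with these channels gave a mixed picture. Of 17 other voltage-gated or voltage-sensing channel genes, 12 were in use, and 4 were higher and 3 lower with C2 ceramide than in DMSO EBs on day 4, against 9.97% and 12.3% of all genes in use, at a median log2 ratio of 0.14. The pacemaker channel gene Hcn4, whose product opens on hyperpolarisation, was among the higher ones, with 84 counts with C2 ceramide, 2 with DMSO on day 4 and 0 with DMSO on day 3. Hcn2 and Hcn3 were nearly level between the day 4 libraries, with a log2 ratio of 0.14 each. The proton channel gene Hvcn1 had 35.8 TPM with C2 ceramide, 15.2 with DMSO on day 4 and 27.8 with DMSO on day 3.

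Of 33 genes of channel regulators and anchors, 23 were in use, 1 was higher and 2 were lower with C2 ceramide than in DMSO EBs on day 4, against 9.97% and 12.3% of all genes in use, at a median log2 ratio of 0.23. Cntnap2, which gathers Kcna channels beside the node of axons, had 1.33 TPM with C2 ceramide, 5.51 with DMSO on day 4 and 4.53 with DMSO on day 3. Rest, the repressor of neuronal genes that include channels, had 42.7 TPM with C2 ceramide, 28.4 with DMSO on day 4 and 41.7 with DMSO on day 3, within 2-fold. Of 19 pumps and exchangers that build the ion gradients, 18 were in use, 2 were higher and 5 lower, against the same 9.97% and 12.3%, at a median log2 ratio of −0.10. Atp1b1, of the sodium pump, had 38.2 TPM with C2 ceramide, 14.1 with DMSO on day 4 and 20.3 with DMSO on day 3. Atp2a1, the calcium pump of fast skeletal muscle, had 0 counts with C2 ceramide, 143 with DMSO on day 4 and 60.9 with DMSO on day 3.

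Markers of early lineages and of pluripotency differed between the day 4 libraries, where 9.97% of all genes in use were higher with C2 ceramide and 12.3% lower. All 8 primitive streak and mesoderm genes were lower with C2 ceramide than in DMSO EBs on day 4, at a median log2 ratio of −3.39, and so were all 6 endoderm genes, at −5.28. The streak and mesoderm genes summed to 69.9 TPM with C2 ceramide, 793 with DMSO on day 4 and 90.5 with DMSO on day 3 and the endoderm genes, in the same order, to 10.5, 761 and 12.2 TPM. Kcns3, Kcnc1, Kcnmb4, Kcna1 and Kcnj5 were likewise highest in DMSO day 4 EBs, though Kcna1 and Kcnj5 passed the limit of counts only there. Of 8 pluripotency genes 5 were higher and 0 lower with C2 ceramide, at a summed 1474 TPM with C2 ceramide, 878 with DMSO on day 4 and 1290 with DMSO on day 3, and Kcnip2, Kcnk12 and Cacnb2 were likewise lowest in DMSO day 4 EBs.

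Neuronal and muscle markers differed among themselves, and the calls below stand beside 9.97% of all genes in use higher and 12.3% lower. Of the genes called, Rbfox3, Dcx, Myh7, Nkx2-5, Myod1, Myh11 and Tal1 were under 50 counts in every library. In that range 23.5% of all genes were higher and 29.3% lower. Of 10 neuron genes 3 were higher and 1 lower with C2 ceramide than in DMSO EBs on day 4, at a summed 98.4 TPM with C2 ceramide, 71.8 with DMSO on day 4 and 71.5 with DMSO on day 3, with Tubb3 at 16.5, 3.69 and 6.93 TPM and Elavl3 at 0.105, 0.152 and 0.527 TPM. Of 8 neural progenitor genes 7 were in use, 4 were higher and 0 lower, and Sox1 had 66 counts with C2 ceramide, 0 with DMSO on day 4 and 0 with DMSO on day 3. Sox2, at 120 TPM with C2 ceramide, 51.2 with DMSO on day 4 and 102 with DMSO on day 3, stands in this list and among the pluripotency genes. Of 8 cardiomyocyte genes 6 were in use, 1 was higher and 2 lower, at a summed 10.6 TPM with C2 ceramide, 35.8 with DMSO on day 4 and 10.8 with DMSO on day 3, of which Myl7 made up 5.97, 32.2 and 4.97 TPM, and Pln had 5.38, 0 and 0 counts. The higher gene was Myh7, called by TPM alone: its counts were lower with C2 ceramide, 20.3 against 38.8 with DMSO on day 4. Of 6 smooth and skeletal muscle genes 5 were in use, with 1 higher and 1 lower, and of 7 blood and endothelial genes 6 were in use, with 2 higher and 3 lower. The part of these cell types in the levels of the channel genes was not tested.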

How the data were processed

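RNA from EBs was sequenced in 3 libraries, 1 per condition. The authors used the SMART-Seq v4 kit, which does not mark strand, and mapped reads with DRAGEN to GRCm38 and a GENCODE annotation. The authors deposited a gene and a transcript table, each with TPM and with estimated counts that need not be whole and are not scaled for depth. Depth was 35290094, 35078820 and 33619197 counts in C2 ceramide day 4, DMSO day 4 and DMSO day 3 EBs.

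Ratios of TPM were taken in Python 3.11.15 (pandas 2.3.3, NumPy 2.4.6, SciPy 1.17.1) and plotted with Matplotlib 3.10.9. A level of 0 TPM was replaced by 0.001, and calls used a ratio above 2 or below 0.5. For each ratio a 95% interval was formed from rounded counts by the exact Clopper-Pearson method, given the sum of both counts, and centred on the TPM ratio, which treats transcript lengths as known. Folds against an empty library set it at 3 counts and take the other count as exact, so counting error allows smaller folds. No test was made, since each condition had 1 library. Simulated libraries with known ratios were used to check the code.

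The channel genes and the other gene lists were chosen with earlier results of these data known. The rule for genes given with values took the 2 most abundant of each family, those past 2-fold on day 4 with 50 or more counts, the 8 highest and 8 lowest ratios of DMSO day 4 over day 3 with 50 or more counts, and those whose TPM and count ratios lie on opposite sides of 1. Values of other family members were added after they were seen, and some genes that the rule takes are not reported here, though the counts and medians include them. Exon overlaps used GENCODE M21 exons on GRCm38, an earlier release than that of the authors' tables, and promoter windows came from RefSeq. Alternatives were other pseudocounts, filters, thresholds and transcripts, and rounded counts scaled by TMM factors of edgeR 4.0.16 or size factors of DESeq2 1.42.0 in R 4.3.3.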

Additional observations from a re-analysis of the deposited data

How the results depend on the processing

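No paired analysis was possible because each condition had 1 library and no result came from a test. Over the alternatives run, the median log2 ratio of the channel genes lay from 0.09 to 0.44 on day 4 with C2 ceramide over DMSO, from −0.58 to −0.07 for DMSO day 4 over day 3 and from −0.21 to 0.04 for C2 ceramide day 4 over DMSO day 3, where the main value of −0.02 became 0.04 with the filter of 10 counts in every library.

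Counts of channel genes past 2-fold were less stable. For C2 ceramide over DMSO on day 4 (23 higher, 18 lower), there were 5 higher and 3 lower with 1 TPM added to each level, 15 and 7 with at least 50 counts in 1 or more libraries, 14 and 7 with at least 10 counts in every library, 8 and 11 at 4-fold, 11 and 9 in the pore-forming voltage-gated families, and, chosen after seeing the data, 15 and 11 without genes whose exons overlap another gene and 12 and 4 with 50 to under 200 counts. For DMSO day 4 over day 3 (16 higher, 23 lower), there were 3 and 4 with 1 TPM added, 6 and 15 with at least 50 counts, 5 and 12 with at least 10 in every library, 10 and 10 at 4-fold, 36 lower at 1.5-fold, 11 lower in the pore-forming families, and 3 and 14 with 50 to under 200 counts. For C2 ceramide day 4 over DMSO day 3 (13 higher, 17 lower), there were 0 and 1 with 1 TPM added, 7 and 6 with at least 50 counts, 6 and 4 with at least 10 in every library, 27 lower with 1 or more counts in any library, 21 and 26 at 1.5-fold, 8 and 11 at 4-fold, 7 and 9 in the pore-forming families, 8 higher without overlapping genes, and 6 and 6 with 50 to under 200 counts. Most of these alternatives test fewer genes or ask for a larger difference, and at levels under 1 TPM the addition of 1 TPM brings ratios towards 1.

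For the 44 genes given with values, 626 of 792 ratios under 6 alternatives lay within their counting interval and 158 outside it. The other 8 had the opposite sign to a main ratio past 2-fold. A change of sign was counted apart only for such ratios, so those within 2-fold that changed sign are among the 626 and 158. Cacna1b gave −0.37 by counts per library total, −0.35 with TMM and −0.35 with DESeq2 size factors on day 4 with C2 ceramide over DMSO, and 0.49, 0.45 and 0.46 for DMSO day 4 over day 3. With TPM of coding transcripts alone, Cacng4 gave 0.00724 on day 4 with C2 ceramide over DMSO and Kcnk2 gave −8.24 for C2 ceramide day 4 over DMSO day 3, since no coding transcript of Kcnk2 had counts with C2 ceramide. Depth limits genes with few counts most: the single count of Kcna3 in DMSO day 4 EBs gives its day 4 log2 ratio of 4.46 an interval of 1.83 to 9.82.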
